A study of Mus musculus with 2 samples.

Results

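The miR-17 family is a group of closely related microRNAs (miRNAs), short RNAs that lower the output of messenger RNAs they pair with. The members were taken by name, as every entry of the deposited array values with the stem miR-17, miR-20a, miR-20b, miR-93, miR-106a or miR-106b and any arm suffix. This rule found 10 of the 831 mouse miRNA entries, and no measured value entered it. A miRNA hairpin can release one mature miRNA from each of its sides, called the 5p and the 3p arm, and the 10 entries were 6 5p arms and 4 3p arms. RefSeq also names mmu-miR-106a-3p and mmu-miR-20b-3p for these hairpins, which were not analysed here.

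The samples were microvesicles (MVs), small membrane vesicles that cells shed, collected by ultracentrifugation from the medium of mesenchymal stem cells (MSCs). The MSCs came from the bone marrow of 4-week-old male C57BL/6 mice and were used at the third passage. EPO-MVs came from MSCs cultured for 48 h with erythropoietin (EPO, the hormone that drives red blood cell formation), at 100 IU/ml by the growth protocol shared by both samples, and MSC-MVs came from MSCs cultured for 48 h without it. The medium of both cultures held 10% fetal bovine serum, described as normal serum, so that vesicles of the serum may be among those collected in both groups. RNA of each kind of MV was hybridized to 1 miRCURY LNA array, so no value below has a replicate, a test or an error, and EPO and the array used cannot be told apart as sources of a difference. The number of mice or cultures behind each array is not given in the sources used here.

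The miR-17 family is known for promoting proliferation and survival. Its members repress the cell cycle inhibitor p21, the pro-apoptotic protein Bim and a receptor for transforming growth factor β, and the transcription factors Myc and E2F switch on their genes. In the kidney, the family is known for promoting cyst growth in polycystic disease. A miRNA recognises its targets mainly through its seed, bases 2 to 8 from the 5′ end, so miRNAs with the same seed share many targets.

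The mature sequences of all 10 members were found by name in RefSeq (GRCm38.p6). The 6 5p arms are shown first, 5′ to 3′ with the seed in capitals, because they carry the seed that defines the family.
mmu-miR-17-5p: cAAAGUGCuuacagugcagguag
mmu-miR-20a-5p: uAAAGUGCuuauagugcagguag
mmu-miR-106a-5p: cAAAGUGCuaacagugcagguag
mmu-miR-20b-5p: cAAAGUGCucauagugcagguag
mmu-miR-106b-5p: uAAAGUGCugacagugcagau
mmu-miR-93-5p: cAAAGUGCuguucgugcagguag
All 6 had the seed AAAGUGC. Outside the seed, aligned from the 5′ end over the shared length, the 15 pairs differed at 1 to 5 bases. The closest pair was miR-17-5p and miR-106a-5p, which differed by U10A (position 10 from the 5′ end, base of miR-17-5p first). From miR-17-5p, miR-20a-5p differed by C1U and C12U, and miR-20b-5p by U10C and C12U. The farthest pair was miR-106b-5p and miR-93-5p, with the 5 differences U1C, A11U, C12U, A13C and A20G. Whether the array's probes separate sequences this close was not tested, and the values of near-identical members may share signal.

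The 3p arms come from the other side of the same hairpins and do not carry this seed, which is why they are shown apart.
mmu-miR-17-3p: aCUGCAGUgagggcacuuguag
mmu-miR-20a-3p: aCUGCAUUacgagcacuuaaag
mmu-miR-93-3p: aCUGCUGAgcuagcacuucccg
mmu-miR-106b-3p: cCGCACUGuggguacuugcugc
Each of the 4 had a seed of its own. The name of a seed family therefore applied to 6 of the 10 entries, and the 5p and 3p arms are described separately. Of the 831 entries, 680 (81.8%) were matched to a RefSeq mature sequence by exact name, and no other entry among these had a seed of any member.

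The members come from 3 gene clusters that arose by duplication, each transcribed as 1 precursor. In RefSeq on GRCm38.p6, Mir17 (chr14:115043671-115043754) and Mir20a (chr14:115044157-115044263) belong to the miR-17-92 cluster, whose 6 hairpins lie on the plus strand within 836 bp. Mir106a (chrX:52742503-52742567) and Mir20b (chrX:52742113-52742192) belong to the miR-106a-363 cluster, whose 6 hairpins lie on the minus strand within 875 bp. Mir106b (chr5:138165737-138165818) and Mir93 (chr5:138165523-138165610) belong to the miR-106b-25 cluster, whose 3 hairpins lie on the minus strand within 498 bp, inside Mcm7, the gene of a subunit of the replicative DNA helicase. The array values themselves name no genome build.

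The authors deposited 1 normalized intensity for each entry and array, on a linear scale in arbitrary units. The values of an array were all whole multiples, to within 0.0001, of its smallest value, named a step here. A step is the finest difference that the values can show, and 471 steps (EPO-MVs) or 447 steps (MSC-MVs) made up an intensity of 1. The ratio of a member is its EPO-MV intensity divided by its MSC-MV intensity, and an entry is called changed from 1.5-fold upwards (a ratio of 1.5 and above, or of 0.667 and below), the threshold of the study. The brightness of one probe does not measure abundance against another probe, so levels are compared between the arrays and not between members.

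Marker entries of several cell types were read as a description of the samples, and they cannot tell the EPO-MV label from the MSC-MV label. All 6 stromal marker entries (such as miR-143-3p, miR-199a-3p and miR-214-3p) had between 3313 and 40369 steps on the arrays. All 6 were lower in EPO-MVs, with ratios from 0.648 to 0.873, and their summed intensity was 157.9 (EPO-MVs) and 205.0 (MSC-MVs). The 6 entries of the haematopoietic list had between 87 and 21839 steps and summed to 67.6 and 79.9, although the MSCs are described as negative for the blood cell marker CD45. Of these, 4 were lower in EPO-MVs, with ratios from 0.659 (miR-223-3p, known from myeloid cells) to 0.921 (miR-142-5p), and 2 were higher, miR-150-5p at 1.36 and miR-144-3p at 1.75. The brightest, miR-142-3p, reached 20714 steps with EPO and 21839 steps without it. Entries of the endothelial, epithelial and neural lists had between 6 and 116 steps. Both endothelial entries were lower in EPO-MVs (0.589 and 0.556), while the 4 epithelial entries found (1.50 to 2.85) and both neural entries (1.29 and 1.90) were higher. The part of other cell types or of serum in the values of the miR-17 family was not tested.

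All 6 5p arms were lower in EPO-MVs than in MSC-MVs, and none reached the 1.5-fold threshold, which 7.02% of 228 other entries within the same range of brightness passed. Their ratios lay between 0.721 and 0.877 with a median of 0.821, which is a median difference of -0.28 on the log2 scale. Across all 831 entries the median ratio was 1.04, and 43.9% of the entries were lower in EPO-MVs by any amount. At 1.2-fold or more, 4 of the 6 5p arms were lower, against 21.9% of all entries.

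In the miR-17-92 cluster, mmu-miR-17-5p, the member that gives the family its name, had an intensity of 1.44 in EPO-MVs (676 steps) and 1.74 in MSC-MVs (777 steps). Its ratio was 0.826. The value of mmu-miR-20a-5p was 0.735 in EPO-MVs (346 steps) and 0.899 in MSC-MVs (402 steps), with a ratio of 0.817. Both members of this cluster, which is known as an oncogenic miRNA cluster in lymphoma, were thus lower in EPO-MVs by nearly the same factor, and the quotient of their ratios was 1.01.

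In the miR-106b-25 cluster, which is made together with the Mcm7 transcript in dividing cells, mmu-miR-106b-5p had an intensity of 4.13 in EPO-MVs (1946 steps) and 4.79 in MSC-MVs (2142 steps). Its ratio was 0.862. For mmu-miR-93-5p the intensity was 0.592 in EPO-MVs (279 steps) and 0.821 in MSC-MVs (367 steps), and the ratio of 0.721 was the lowest of the 6. Both were lower in EPO-MVs, and their ratios lay farther apart than those of the miR-17-92 members.

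In the miR-106a-363 cluster, the X-linked copy, mmu-miR-106a-5p had an intensity of 1.06 in EPO-MVs (501 steps) and 1.43 in MSC-MVs (637 steps). Its ratio was 0.746. For mmu-miR-20b-5p the intensity was 0.520 in EPO-MVs (245 steps) and 0.593 in MSC-MVs (265 steps), and the ratio of 0.877 was the highest of the 6. The EPO-MV value was thus the lower one for both members of each of the 3 clusters.

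**Figure D1:**
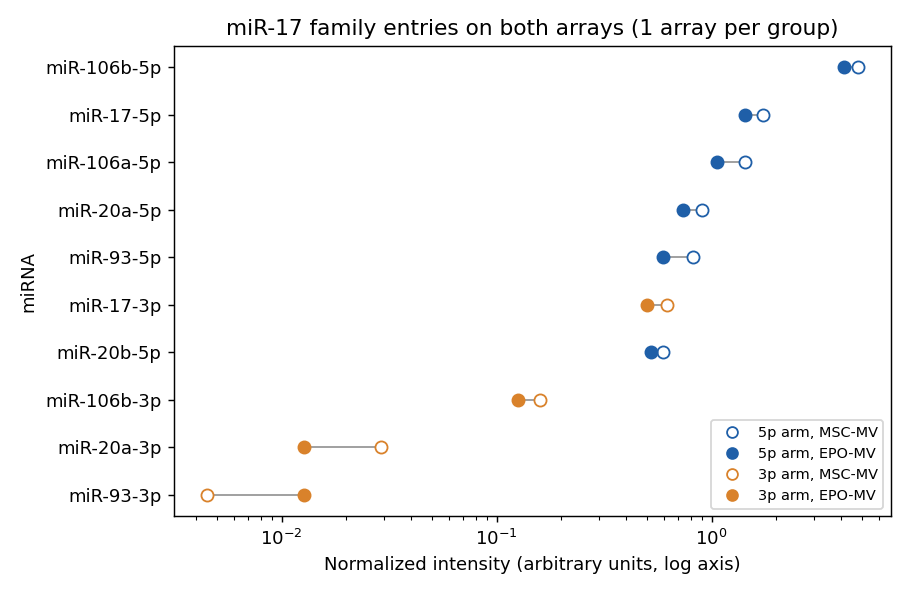
Normalized intensity (log axis, arbitrary units) of the 10 miR-17 family entries, with open points for the MSC-MV array and filled points for the EPO-MV array, 1 array each. The EPO-MV point lies to the left for 9 of the 10 entries, and mmu-miR-93-3p is the exception; distances between rows reflect probes as well as amounts.

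From the lowest, the order of the ratios was miR-93-5p, miR-106a-5p, miR-20a-5p, miR-17-5p, miR-106b-5p and miR-20b-5p. Neighbours in this order differed by little, and without replicates no pair can be said to differ. Over the 15 pairs, the ratios lay farthest apart for miR-20b-5p and miR-93-5p, with a quotient of 1.22 (miR-20b-5p over miR-93-5p). The pair with a single base difference, miR-17-5p and miR-106a-5p, had a quotient of 1.11, while miR-17-5p and miR-20a-5p, which differ at 2 bases, had the quotient closest to 1.

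The ratio depended on brightness on these arrays, so the 5p arms were set beside entries of like brightness. Between the lowest and the highest mean log2 intensity of the 6 5p arms there were 228 entries outside the family. Of these, 52.2% were lower in EPO-MVs by any amount and 19.7% were lower by at least 1.2-fold. Their median ratio was 0.990, their lower quartile 0.873 and their upper quartile 1.12. Of the 6 5p arms, miR-20b-5p alone lay above this lower quartile. Among all 831 entries, between 10.8% (for miR-93-5p) and 27.4% (for miR-20b-5p) had a lower ratio than the 5p arm in question. Ratios below 1 were thus common at this brightness, and those of the family were in the lower part of the range. Such ratios were not confined to the family. All 6 stromal marker entries, which were brighter, had ratios from 0.648 to 0.873.

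**Figure D2:**
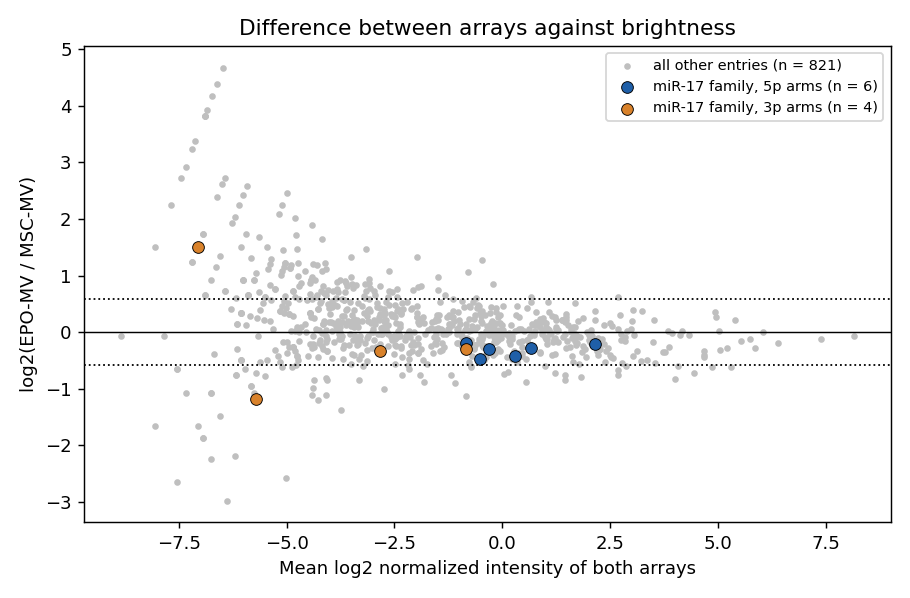
Log2 ratio of EPO-MV to MSC-MV against the mean log2 intensity of both arrays for 831 entries; dotted lines mark 1.5-fold. The 6 5p arms lie between -0.47 and -0.19, below 0 and inside the dotted lines, while 2 dim 3p arms lie outside them.

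The 3p arms were less alike. For mmu-miR-17-3p the intensity was 0.499 in EPO-MVs (235 steps) and 0.617 in MSC-MVs (276 steps), a ratio of 0.808. For mmu-miR-106b-3p it was 0.125 in EPO-MVs (59 steps) and 0.159 in MSC-MVs (71 steps), a ratio of 0.789. Both lay close to the 5p arm of their own hairpin. The ratio of the 5p arm divided by that of the 3p arm, in which a constant factor of each probe cancels but the dependence of ratios on brightness does not, was 1.02 for miR-17 and 1.09 for miR-106b. With the trend on brightness removed by lowess, these quotients were 1.06 and 1.31.

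The remaining 3p arms were dim. The value of mmu-miR-20a-3p was 0.0127 in EPO-MVs (6 steps) and 0.0291 in MSC-MVs (13 steps), a ratio of 0.438. The value of mmu-miR-93-3p was 0.0127 in EPO-MVs (6 steps) and 0.00447 in MSC-MVs (2 steps), a ratio of 2.85. These were the 2 members past 1.5-fold, 1 lower and 1 higher in EPO-MVs, and they differed between the arrays by 7 and by 4 units of the finest step. The call of miR-93-3p was lost with quantile normalization (ratio 1.29), lowess (1.49) and the pseudocount (1.13), and that of miR-20a-3p with the pseudocount (0.811). Against their 5p arms, the quotient of ratios was 1.86 for miR-20a and 0.253 for miR-93, and it moved to 2.79 and 0.485 with lowess and to 1.02 and 0.652 with the pseudocount.

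Changed members were thus 2 of 10, against 25.4% of all entries (17.8% higher and 7.58% lower in EPO-MVs). Among the 85 entries with at most 13 steps on both arrays, a limit chosen after the values were seen, 69.4% passed 1.5-fold. The 2 members past the threshold were among these entries. Of the other 8 members, those with at least 59 steps on each array, none passed it, against 10.8% of all entries with at least 30 steps and 8.64% of those with at least 60 steps on both arrays.

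The 3 clusters also encode miRNAs of other seeds, and 11 entries of these were present. They include miR-18 and miR-19, and miR-92a, miR-363 and miR-25, whose 3p arms are known to share a further seed. Of the 11 entries, 6 were lower and 5 were higher in EPO-MVs, with a median ratio of 0.940, against 43.9% of all entries that were lower. Among the 7 with at least 60 steps on both arrays, 5 were lower and the median ratio was 0.899 (-0.15 on the log2 scale). The median log2 ratio of all entries with at least 60 steps on both arrays was -0.03. Of all entries above the median brightness, which is a different filter, 54.9% were lower. Among the other 4 of the 11 entries, 1 was lower. Of the 11 entries, 3 passed 1.5-fold, against 25.4% of all entries. The 3 entries past 1.5-fold were miR-25-3p, lower at 232 steps against 338 steps (ratio 0.651), miR-92a-2-5p, higher at 169 against 91 steps (ratio 1.76), and miR-19a-5p, higher at 7 against 4 steps (ratio 1.66). The bright miR-19a-3p and miR-19b-3p had ratios of 0.789 and 0.752, within the range of the family's 5p arms. The ratio of miR-92a-3p was 0.940, and those of miR-18a-5p and miR-18b-5p were 0.786 and 1.19. At 60 steps and above, the higher entries were miR-92a-2-5p and miR-363-5p (ratio 1.12), both of the miR-106a-363 cluster; in the other clusters the higher entries, miR-19a-5p and miR-93-3p, had at most 7 steps. Mature miR-19b and miR-92a are each made by both the miR-17-92 and the miR-106a-363 cluster, and their values cannot be assigned to one of them.

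**Figure D3:**
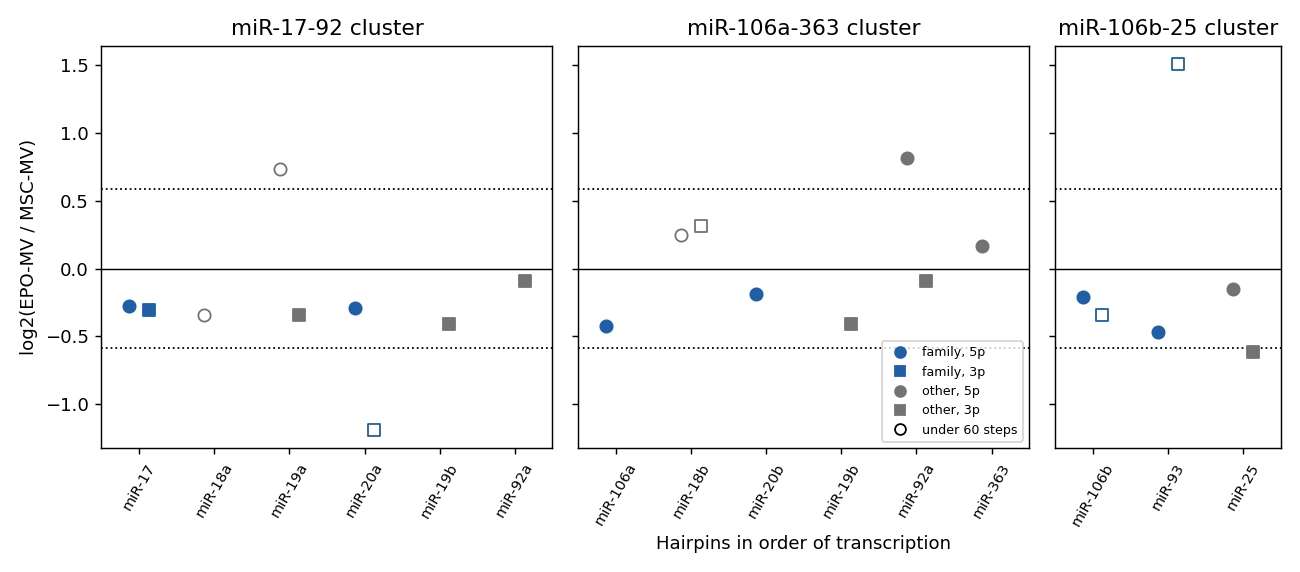
Log2 ratio of EPO-MV to MSC-MV for the entries of each cluster, in order of transcription along the precursor, with dotted lines at 1.5-fold; circles are 5p arms, squares 3p arms, blue the miR-17 family, grey the other miRNAs, and open symbols entries under 60 steps on an array. The blue circles are below 0 in all 3 clusters, and the values of miR-19b and miR-92a-3p are drawn in both clusters that encode them.

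The entries whose brightness on both arrays was most like that of the family, which is no measure of like abundance, were found by the distance, over 2 arrays, from the median log2 intensity of the 6 5p arms (0.884 for EPO-MVs and 1.13 for MSC-MVs on the linear scale). The 3 nearest were miR-378b at a distance of 0.0569 (ratio 0.788), miR-669e-5p at 0.143 (ratio 0.812) and miR-3964 at 0.183 (ratio 0.734). With 2 arrays this is a likeness of brightness and of 1 ratio, so ratios near those of the family follow from the choice by distance.

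The direction of the 5p arms was the same under each of the 5 other ways of scaling the arrays or treating dim values that were tried. Of these, the pseudocount cannot change a direction. Re-centring lowered every ratio, because the median log2 ratio of all entries was 0.05. Neither could therefore turn a ratio below 1 into one above it. All 6 5p arms were below 1 and within 1.5-fold in each of the 5 settings. Of all entries, between 39.0% (scaled to the 75th percentile) and 49.9% (re-centred) were lower by any amount. Between 6.50% (pseudocount) and 25.9% (scaled to the 75th percentile) of all entries passed 1.5-fold. Quantile normalization gave ratios from 0.719 to 0.980, removal of the trend with brightness gave 0.722 to 0.940, and re-centring on the median of all entries gave 0.697 to 0.847. The value closest to 1 was that of miR-106b-5p, the brightest member, under quantile normalization.

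**Figure D4:**
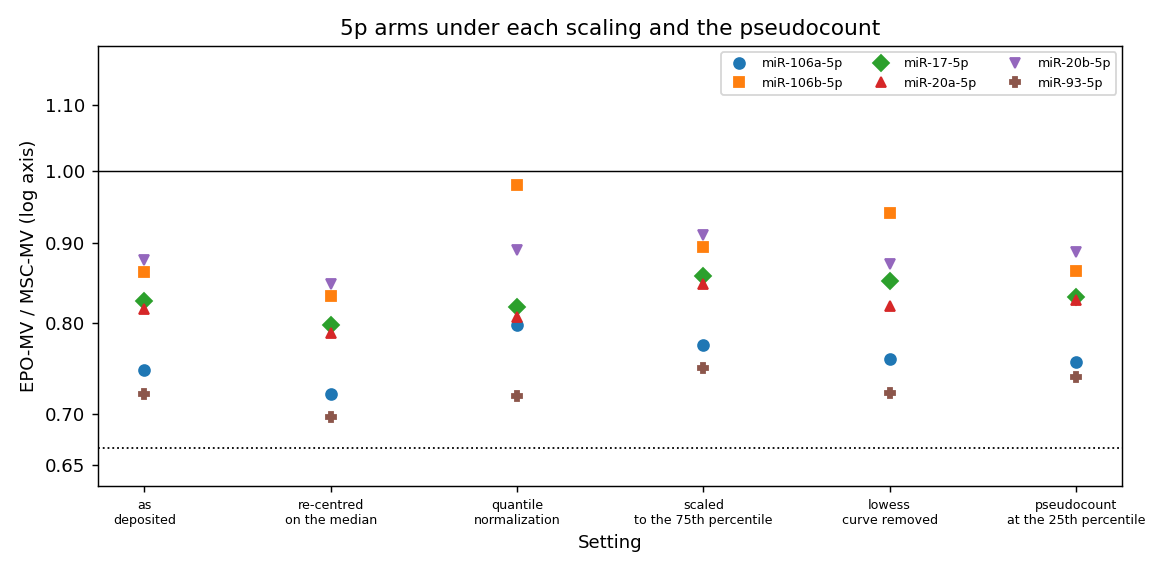
Ratio of EPO-MV to MSC-MV (log axis) of the 6 5p arms with the deposited values and under 5 alternatives; the solid line marks a ratio of 1 and the dotted line 1.5-fold lower. All points lie between the lines, from 0.697 for miR-93-5p after re-centring to 0.980 for miR-106b-5p after quantile normalization.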

How the data were processed

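RNA of MVs was labelled and hybridized to miRCURY LNA arrays (version 18.0), which were scanned with an Axon GenePix scanner and read with GenePix Pro 6.0. The authors averaged the spots of each miRNA, derived the normalization factor from miRNAs of at least 30 intensity units in all samples, and deposited median-normalized intensities for 831 entries. The channel read and any background correction are not given in the sources used here. Ratios were computed from these deposited intensities without a pseudocount or filter, and called at 1.5-fold. The alternatives were scaling to the 75th percentile, re-centring on the median, a lowess curve subtracted (span 0.4, 3 iterations), quantile normalization, a pseudocount of 0.0573 (the 25th percentile), thresholds of 1.2 and 2, and 3 filters on dim entries. The members and lists were chosen with earlier results of these data known. Named were all members, the other miRNAs of their clusters, entries sharing a seed, and the 3 nearest entries. Marker lists covered stromal, haematopoietic, endothelial, epithelial and neural miRNAs. The counting code was checked on simulated data without measurement error, which says nothing about the error of real values. Python 3.11.15, pandas 2.3.3, numpy 2.4.6 and statsmodels 0.14.6 were used.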

Additional observations from a re-analysis of the deposited data

How the results depend on the processing

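The number of members past the threshold, 2 with the deposited values, was 1 after quantile normalization and 1 after removal of the lowess curve, against 22.9% and 22.6% of all entries (in both, mmu-miR-20a-3p was left and mmu-miR-93-3p had ratios of 1.29 and 1.49). It was 0 with the pseudocount (6.50% of all entries), which exceeds the values of both dim members and shrinks their ratios by construction (0.811 for mmu-miR-20a-3p and 1.13 for mmu-miR-93-3p). It was also 0 with at least 30 steps on both arrays, 0 with at least 60 steps and 0 above the median brightness, since these filters leave out both members and keep 8, 7 and 7 of the 10; of all entries kept, 10.8%, 8.64% and 9.16% passed. At a threshold of 1.2, 8 members passed, against 55.4% of all entries; at a threshold of 2, 2 passed, against 10.6%. The median log2 ratio of the members was -0.30 as deposited and lay between -0.35 (re-centred) and -0.25 (scaled to the 75th percentile) under the alternatives. After quantile normalization, lowess and the pseudocount, the quotient of the arms was 2.79, 2.79 and 1.02 for miR-20a (1.86 as deposited), 0.558, 0.485 and 0.652 for miR-93 (0.253), 1.39, 1.31 and 1.02 for miR-106b (1.09), and 1.02, 1.06 and 1.01 for miR-17 (1.02). The values hold no measure of background, and the steps limit what dim members can show. No paired analysis was possible because each group had 1 array.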
